A study of Mus musculus with 10 samples.

Results

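The transcription factor NF-kB and the genes that switch it off again were followed in 10 RNA sequencing libraries of mouse mammary fibroblasts and lobular carcinoma cells. The set held 10 of the 55486 genes in the count table, taken by gene symbol: the subunits Nfkb1, Nfkb2, Rela and Relb, the inhibitors Nfkbia and Nfkbie, and the targets Tnfaip3, Birc3, Traf1 and Tnfrsf9. All 10 had counts in every library.

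Normal fibroblasts (NFs) were taken from mTmG mice aged 8 weeks, several mice to a pooled sort, and were split by the surface protein CD26. The mTmG reporter marks cells red with Tomato until Cre recombinase switches them to green GFP. An adenovirus carrying Cre was given to the CD26+ NFs alone, so virus exposure and subset cannot be told apart in any comparison of CD26+ (green) with CD26- (red) NFs. After a period of growth on plastic, both subsets were mixed in equal numbers in gels of collagen and basement membrane extract, cultured for 7 days and sorted again by color. Tumor cells were of genotype WapCre;Cdh1F/F;PtenF/F, in which the Wap promoter drives Cre in mammary epithelium, and came from 2 lines, 13-MCB-17 and 10-SJK-221, that model invasive lobular carcinoma (ILC). Gel 1 held NFs without tumor cells and gave 1 library for each subset. Gels 2 and 3 held 13-MCB-17 and 10-SJK-221 cells without NFs and gave 1 library each. Gels 4 and 5 held NFs with 13-MCB-17 and with 10-SJK-221 cells, in that order, and each gave a CD26- NF, a CD26+ NF and a tumor library. The 10 libraries thus formed 6 groups of 1 or 2, and p-values measure only the spread between these libraries. The labels name a pair of sequencing platforms without tying libraries to either, so no split by platform was possible. Only 1 gel held NFs alone, so the effect of co-culture on NFs and any peculiarity of that gel cannot be told apart.

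Libraries held 14142334 to 18408940 counts, so 3 counts, the upper limit that a count of 0 allows, corresponded to 0.163 to 0.212 CPM (counts scaled to a common library total). These limits cover counting error only. All 10 fibroblast markers were lower and all 10 epithelial markers higher in tumor cells than in NFs, both in cells grown alone and in the shared gels, as the labels state. The 10 epithelial markers summed to 1.30 and 4.00 CPM in NFs alone but in the shared gels the NF libraries summed to 129.3 to 306 CPM, against 3917 and 4783 CPM in the tumor cells of these gels. The median marker in co-cultured NFs reached 2.01% (CD26-) and 3.24% (CD26+) of its tumor level in gel 4, and 2.2% and 5.46% in gel 5. The highest marker, keratin gene Krt19, reached 9.19% to 17.7%. This share is called carry-over here. Of the 10 immune markers, whose sum was 11.6 and 14.5 CPM in NFs alone against 32.9 to 65.3 CPM after co-culture, Tyrobp had no count in any library and Ptprc and Adgre1 stayed under 0.2 CPM. Cd68 made up most of the sum after co-culture, at 19.6 to 53.5 CPM, and Lyz2 was the higher of these 2 in CD26- NFs alone (6.02 against 3.48 CPM). Tumor cells alone had 299 and 93.1 CPM of Cd68. Csf1r went from 1.86 and 2.81 CPM in NFs alone to between 7.4 and 13.5 CPM. Itgam went from 0.124 and 0 CPM to between 0.85 and 1.61 CPM. Of 4 immune markers tested in NFs, 3 rose and 1 fell by edgeR (100% called against 48.8% of all genes). The 7 endothelial markers summed to 5.65 and 13.1 CPM in NFs alone and to 13.8 to 32.3 CPM after co-culture. By edgeR 3 of 5 tested rose and 1 fell (80% called against 48.8% of all genes). Pecam1 went from 0.311 and 1.26 CPM to between 5.93 and 9.76 CPM. The part of immune and endothelial cells in the results was not tested.

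NF-kB is a family of dimers that wait in the cytoplasm, held by IkB proteins. Signals from cytokine and pattern receptors have IkB proteins destroyed, which frees Rela and Nfkb1 dimers in the canonical route, while the non-canonical route processes the Nfkb2 product to act with Relb. Among the genes that the freed dimers switch on are those for IkB proteins, for the deubiquitinase A20 and for several subunits, so the pathway brakes itself. In fibroblasts it is known for driving cytokines and chemokines. RNA levels do not show where the proteins were or whether they were active.

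Because these genes are known as targets of NF-kB itself, the 250 bases before each RefSeq start site (GRCm38.p6) were searched on both strands for the kB consensus and for GGACTTTCC, a shorter form that overlaps it when a G precedes it. Of the 10 genes, 8 had a promoter entry (12 entries in all). The consensus was found for 5 of the 8, Nfkbia, Nfkbie, Nfkb2, Tnfaip3 and Tnfrsf9, and in the promoters of 4.46% of 27025 genes (3.90% of 32851 promoters). GGACTTTCC was found for 2, Nfkbia and Nfkb2, and for 0.333% of genes (0.283% of promoters). A match describes letters only. The windows below show the match in capitals with up to 9 bases on either side, 5' to 3' on the strand of the gene, because they belong to the genes whose values are followed next. The Nfkbia windows are chr12:55492808-55492834 and chr12:55492658-55492685 (minus strand), 178 to 170 and 29 to 20 bases before the start and upstream of every GENCODE transcript of the gene. The Nfkbie window is chr17:45555585-45555612 (plus strand), 106 to 97 bases before the start and also upstream of every transcript. Nfkb2 had 4 sites over its 3 starts, and 2 are shown. The first, chr19:46304689-46304717 (plus strand), lies 39 to 29 bases before one start and inside an untranslated exon of longer transcripts. The second, chr19:46305696-46305723 (plus strand), holds a consensus match that contains GGACTTTCC, 225 to 216 bases before another start, also on an untranslated exon. Tnfaip3 had 2 sites before one start, and the nearer, chr10:19015411-19015431 (minus strand), lies 12 to 3 bases before it and in an intron of longer transcripts. The Tnfrsf9 window, chr4:150927947-150927975 (plus strand), lies 43 to 33 bases before one of its starts and in an untranslated exon of longer transcripts.
Nfkbia distal: tggtcgggaGGACTTTCCagccactca
Nfkbia proximal: gactggcttGGAAATTCCCcgcgcctga
Nfkbie: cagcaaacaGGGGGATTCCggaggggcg
Nfkb2 first: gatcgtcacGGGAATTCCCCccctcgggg
Nfkb2 second: ggtattttcGGGACTTTCCtaagcagca
Tnfaip3: atttccatcGGAAATCCCCct
Tnfrsf9: agagcagctGGGGATTTCCCaggaggccc

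Per kilobase of exon, the order of the genes differed between cell types and cultures. In NFs alone Nfkbia led at a mean of 113 CPM per kb (range 102 to 124), followed by Rela at 27.2 (25.1 to 29.3) and Tnfaip3 at 17.9 (16 to 19.8). Tnfrsf9 and Traf1 were last, at 0.298 and 0.0605 CPM per kb. In co-cultured NFs Tnfrsf9 stood beside Nfkbia, at 88.8 (74.7 to 102) and 84.6 (77.1 to 101) CPM per kb, and their ranges overlapped. Tnfaip3 stood eighth of the 10 there at 7.84 CPM per kb, and its range of 6.70 to 8.61 overlapped that of Birc3 (7.26 to 11.1) but not that of Nfkbie (5.71 to 6.22). Tumor cells alone had Nfkbia at 162 (145 to 179) and Tnfrsf9 at 131 (90.9 to 171) CPM per kb, overlapping ranges, then Nfkb2 at 51.4 and Rela at 49.1. In co-cultured tumor cells Tnfrsf9 came first at 211 CPM per kb (182 to 241), apart from Nfkbia at 146 (139 to 152). Birc3 was the last gene in tumor cells of either culture, at 0.0915 and 0.0625 CPM per kb.

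**Figure D1:**
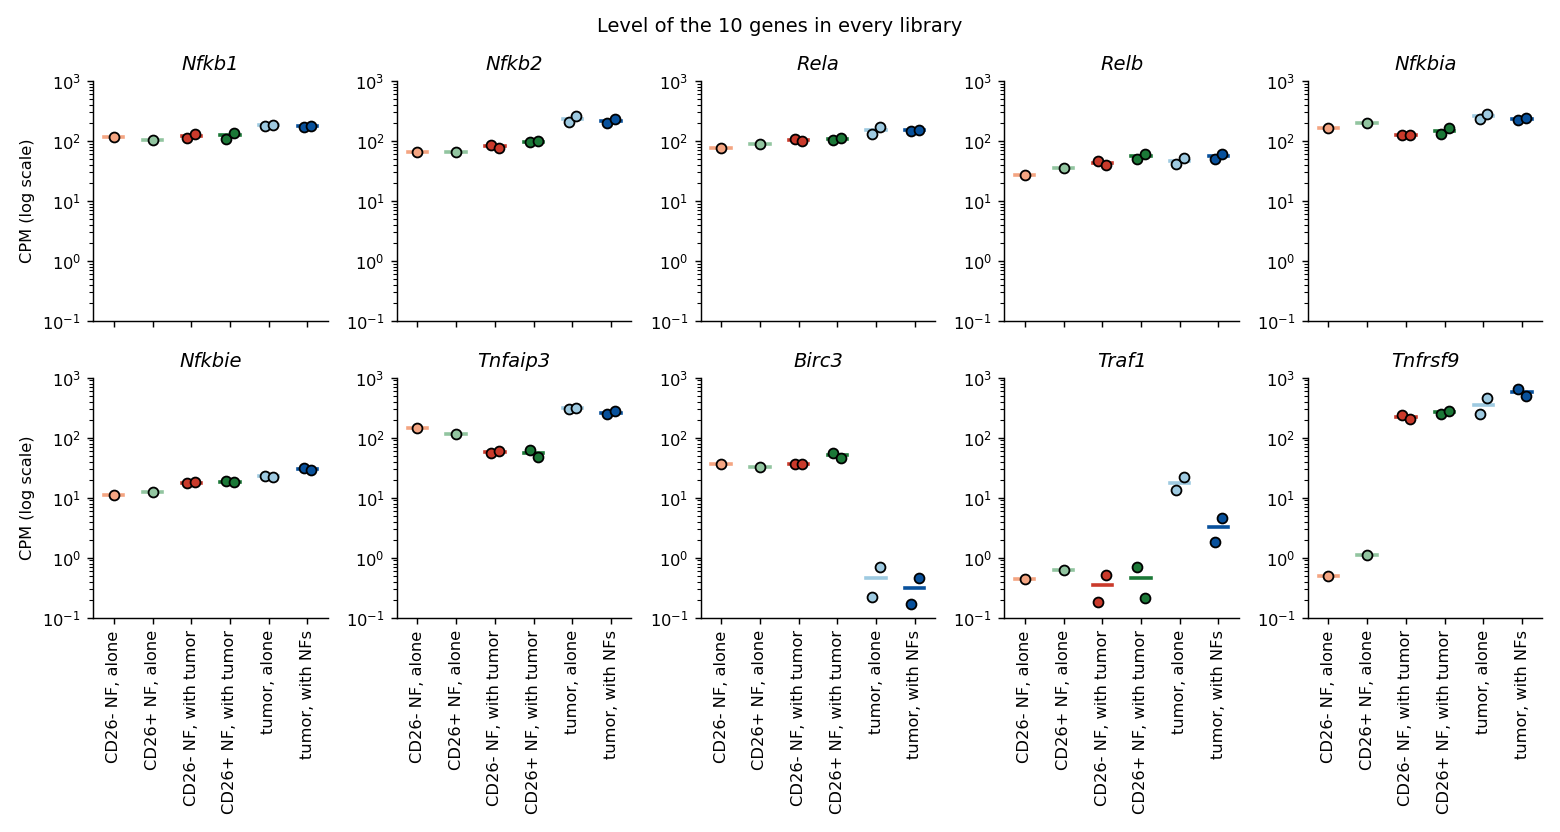
CPM on a log axis (vertical) of the 10 genes in each of the 10 libraries (points) by group (horizontal), with the group mean as a bar. The 4 subunits and 2 inhibitors lie between 11.3 and 287 CPM in every library, while Birc3 is below 1 CPM in tumor cells, Traf1 below 1 CPM in NFs, and Tnfrsf9 rises from about 1 CPM or less in NFs alone to 203 CPM or more in co-cultured NFs.

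To ask whether NFs changed these genes in gels shared with tumor cells, the 4 co-cultured NF libraries were compared with the 2 NF libraries grown alone. Of the 10 genes 5 rose (Nfkb2, Rela, Relb, Nfkbie and Tnfrsf9), 2 fell (Nfkbia and Tnfaip3) and 3 did not pass the test (Nfkb1, Birc3 and Traf1). Across all genes 7325 of 15013 tested (48.8%) passed, and the 7 of 10 are read against that share. The test was edgeR's quasi-likelihood F test with Benjamini-Hochberg adjustment over all genes tested, here and below. The median log2 fold change of the 10 genes was 0.39, against 0.02 over all genes. Fewer cells expressing a gene and less RNA per cell cannot be told apart in these bulk libraries. Without gel 5, 3 of the 10 genes passed, Relb, Tnfaip3 and Tnfrsf9, and 6 passed without gel 4. Both NF libraries of a gel share that gel, and with their counts added up 5 of the 10 passed, without Rela (adjusted p = 0.0644 by edgeR) and Nfkbia (0.0532). With no filter on low counts 5 passed as well, again without Rela (0.0631) and Nfkbia (0.0734).

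Tnfrsf9 changed most. It encodes 4-1BB (CD137), a TNF receptor family member best known as a costimulatory receptor of T cells (ENSMUSG00000028965, chromosome 4, 150914562 to 150946102). NFs alone had 0.497 CPM (CD26-, 8 counts) and 1.12 CPM (CD26+, 16 counts). In gels 4 and 5, CD26- NFs reached 235 and 203 CPM, and CD26+ NFs 249.8 and 278 CPM. No co-cultured library overlapped the NFs alone, and the ratio to the same subset alone was 222 to 474. The log2 fold change was 8.28 ± 0.26 (SE, adjusted p = 5.47e-08 by edgeR). Tumor cells of the same gels had 655 and 495 CPM, so Tnfrsf9 in co-cultured NFs stood at 35.9% to 56.2% of the tumor level. The median carry-over share would give 10.9 to 27 CPM, and the share of the highest marker 45.5 to 87.7 CPM, in each library less than the CPM measured. With carry-over subtracted from the counts the log2 fold change was 8.24.

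**Figure D2:**
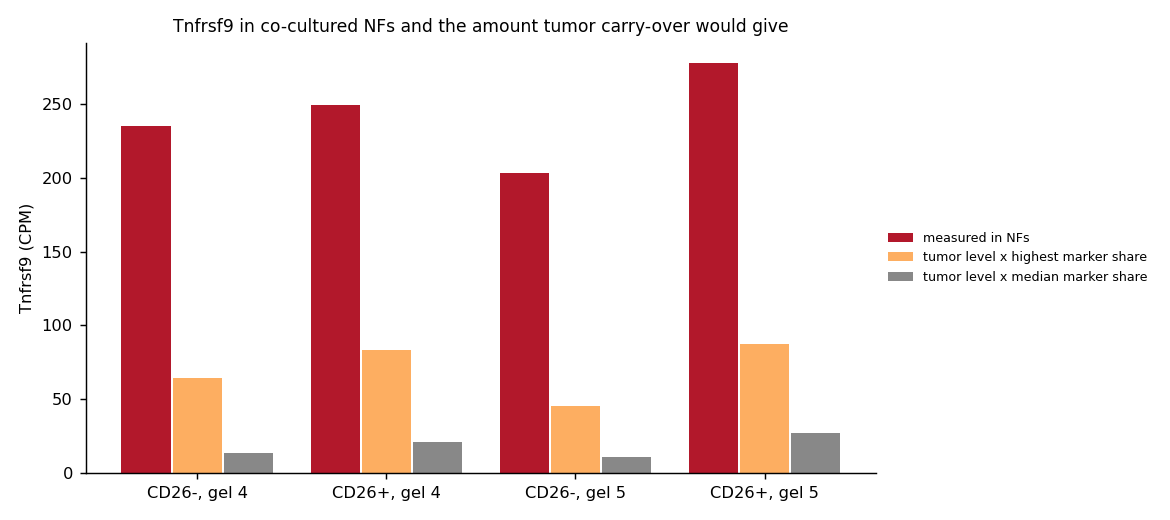
Tnfrsf9 in CPM (vertical, bars from 0) in the 4 co-cultured NF libraries (horizontal), beside the CPM that tumor RNA would give at the share of the median and of the highest epithelial marker. The measured bars, 203 to 278 CPM, exceed the bars at the highest marker share, 45.5 to 87.7 CPM, in all 4 libraries.

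Tnfaip3 moved the other way. It encodes A20, the deubiquitinase that ends signaling from TNF and interleukin-1 receptors (ENSMUSG00000019850, chromosome 10, 19000910 to 19015657). NFs alone had 143 CPM (CD26-) and 115 CPM (CD26+). Next to tumor cells, CD26- NFs were at 55.9 CPM (gel 4) and 59.9 CPM (gel 5), while the CD26+ values were 62.3 and 48.4 CPM. All 4 lay below both libraries of NFs alone, at 0.391 to 0.539 of the same subset. The log2 fold change was -1.14 ± 0.14 (SE, adjusted p = 0.00013 by edgeR). Tumor cells held more Tnfaip3 than NFs in either culture, and with carry-over subtracted the log2 fold change was -1.31.

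Of the inhibitors, Nfkbie rose and Nfkbia fell. Nfkbia encodes IkB-alpha, the rapidly resynthesized inhibitor (ENSMUSG00000021025, chromosome 12, 55489410 to 55492647), and Nfkbie encodes the related IkB-epsilon (ENSMUSG00000023947, chromosome 17, 45555703 to 45563169). Nfkbia had 164 CPM (CD26-) and 200 CPM (CD26+) in gel 1, then 128 and 129.9 CPM in gel 4 and 124 and 163 CPM in gel 5, in the same order. The log2 fold change of -0.37 ± 0.14 (SE) was just past the threshold (adjusted p = 0.0466 by edgeR), and it was not past it without gel 4 (-0.27, adjusted p = 0.126) or without gel 5 (-0.48, adjusted p = 0.0668). Nfkbie had 11.3 CPM (CD26-) and 12.6 CPM (CD26+) in gel 1, 17.4 and 19.0 CPM in gel 4 and 18 and 18.2 CPM in gel 5. Every co-cultured library was above both libraries of NFs alone, with a log2 fold change of 0.65 ± 0.16 (SE, adjusted p = 0.00741 by edgeR). The ratio of Nfkbia to Nfkbie, per kilobase, was 27.5 and 30.1 in NFs alone and 13.0 to 16.9 in co-cultured NFs.

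Among the subunits, Relb rose most. Relb encodes the partner of the processed Nfkb2 product p52 (ENSMUSG00000002983, chromosome 7, 19606217 to 19629438). It had 26.8 CPM (CD26-) and 35.9 CPM (CD26+) in gel 1, 46.7 and 50.1 CPM in gel 4 and 40.6 and 61.5 CPM in gel 5, with no overlap (0.72 ± 0.14 on the log2 scale, SE, adjusted p = 0.00294 by edgeR). Nfkb2, the gene of the p100 precursor (ENSMUSG00000025225, chromosome 19, 46304320 to 46312385), had 65.0 and 65.1 CPM in NFs alone against 77.2 to 100.1 CPM in co-culture, where CD26+ NFs were above CD26- NFs in both gels. Its log2 fold change was 0.50 ± 0.13 (SE, adjusted p = 0.00901 by edgeR). Exons of Nfkb2 overlap those of 2 genes on the other strand over 18.1% of their length, and it was not stated whether counting used strand, so its counts are less certain than those of the other 9, which overlap none. Rela encodes p65, the transactivating subunit of the canonical dimer (ENSMUSG00000024927, chromosome 19, 5637483 to 5648130). It had 77.0 and 90.1 CPM in NFs alone against 99.6 to 113 CPM in co-culture, again without overlap (0.40 ± 0.13, SE, adjusted p = 0.0248 by edgeR). Nfkb1, the gene of the p105 precursor of p50 (ENSMUSG00000028163, chromosome 3, 135584655 to 135691547), had 115 and 106 CPM in NFs alone against 110.1 to 138 CPM in co-culture. These groups overlapped, and the log2 fold change of 0.19 ± 0.15 (SE) did not pass (adjusted p = 0.311 by edgeR). Without gel 5, neither Nfkb2 (adjusted p = 0.0558), Rela (0.139) nor Nfkbie (0.0631) passed. Carry-over at the median share would account for 4.55% to 12.7% of the Nfkb2 CPM in these libraries. With that share subtracted the Nfkb2 log2 fold change was 0.45. At the share of the highest marker, carry-over would give 19.2 to 41.2 CPM of Nfkb2. Whether its rise exceeds that amount was not tested.

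Birc3 and Traf1 encode proteins that bind to the TRAF2 complex at TNF receptors, cIAP2 and TRAF1. Birc3 (ENSMUSG00000032000, chromosome 9, 7848699 to 7873186) had 36 CPM in gel 1, 36.5 CPM in gel 4 and 36.4 CPM in gel 5 among CD26- NFs. The CD26+ libraries of these gels held 32.2, 55.6 and 46.6 CPM. Over both subsets the log2 fold change was 0.38 ± 0.17 (SE, adjusted p = 0.0863 by edgeR). Traf1 (ENSMUSG00000026875, chromosome 2, 34941750 to 34961772) had 3 to 11 counts in every NF library, which is 0.182 to 0.707 CPM, and a change (log2 fold change -0.32 ± 0.69, SE) was not detectable at this depth.

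Within single subsets 2 co-cultured libraries were set against 1, and that lone library was assumed to vary like the co-cultured NFs, the only source of spread in these fits. So fitted, CD26- NFs passed the test for 4 of the 10 genes (Relb, Nfkbie and Tnfrsf9 up, Tnfaip3 down), with 30.8% of all 16231 genes called. CD26+ NFs passed for 5 (Nfkb2, Relb, Birc3 and Tnfrsf9 up, Tnfaip3 down), with 34.2% of all genes called. On the log2 scale Tnfaip3 fell by 1.24 (CD26-) and by 1.02 (CD26+, adjusted p = 0.00049 and 0.0021 by edgeR). DESeq2 did not call Nfkbie in CD26- NFs (adjusted p = 0.124) or Relb in CD26+ NFs (0.0663), and with carry-over subtracted neither Nfkbie in CD26- NFs (0.0582) nor Nfkb2 in CD26+ NFs (0.0634) passed, although their log2 fold changes moved little, from 0.71 to 0.70 and from 0.62 to 0.56. With no filter on low counts 2 passed in each subset, without Relb (0.0518) and Nfkbie (0.0803) in CD26- NFs and without Nfkb2 (0.0842), Relb (0.0916) and Birc3 (0.0596) in CD26+ NFs. Birc3 rose by 0.71 ± 0.22 (SE, adjusted p = 0.0227) in CD26+ NFs and had a log2 fold change of 0.09 ± 0.21 (SE, adjusted p = 0.794) in CD26- NFs. The difference between these Birc3 responses was 0.62 ± 0.30 (SE) and did not pass (adjusted p = 0.663 by edgeR). None of the 10 genes passed this test of the difference between subsets in response, and none had an unadjusted p under 0.05. Over all genes 61 (0.376%) passed by edgeR, and 395 passed with the gel as a replicate block, under which again none of the 10 did. DESeq2 called none of the 10 either.

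To compare the subsets, CD26+ NFs were set against CD26- NFs over gels 1, 4 and 5. None of the 10 genes passed by edgeR or by DESeq2, while 7.53% of all 15013 genes did. By edgeR 1 of the 10 had an unadjusted p under 0.05. This was Tnfaip3, with a log2 fold change of -0.31 ± 0.13 (SE, adjusted p = 0.191), for which the CPM ratio of CD26+ to CD26- NFs was 0.807 in gel 1, 1.11 in gel 4 and 0.808 in gel 5. The other 9 log2 fold changes lay between -0.16 (Nfkb1) and 0.28 (Traf1), with SEs of 0.12 to 0.16 except for Traf1 (0.66). In each of the 3 gels the CPM ratio of CD26+ to CD26- NFs was above 1 for Nfkb2, Relb, Nfkbia, Nfkbie and Tnfrsf9, though Nfkb2 had 65.0 and 65.1 CPM in gel 1. These ratios lack the TMM scaling of the fit, in which Nfkbie (1.11, 1.09 and 1.01) had a log2 fold change of -0.06, so a ratio near 1 need not mean a higher level. Relb had ratios of 1.34, 1.07 and 1.51, and its log2 fold change of 0.22 ± 0.13 (SE) had an adjusted p of 0.33 by edgeR. Nfkbia had ratios of 1.22, 1.02 and 1.31, and Tnfrsf9 had 2.26 at its low level in gel 1 and 1.06 and 1.37 in the shared gels (0.18 ± 0.16, SE, adjusted p = 0.527). The CD26+ libraries of the shared gels had the higher carry-over share in both gels, and with carry-over subtracted the log2 fold changes were 0.24 (Relb) and 0.18 (Tnfrsf9). The count over all genes fell from 1130 to 17 when gel 5 was left out, and none of the 10 passed then either.

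Tumor cells from the shared gels were compared with the same lines grown alone. Of the 9 genes tested 1 passed, Traf1 (11.1%, with 22.3% of all 13197 genes called), and 4 had an unadjusted p under 0.05. Birc3 was too low to test. Traf1 had 13.3 CPM in 13-MCB-17 cells alone and 1.81 CPM with NFs, and 22.5 CPM in 10-SJK-221 cells alone and 4.68 CPM with NFs. Both lines were lower in co-culture, by 7.32-fold and 4.82-fold, and the log2 fold change was -2.54 ± 0.22 (SE, adjusted p = 0.000217 by edgeR). Without the tumor line as a term, neither Traf1 (adjusted p = 0.142) nor any other gene in the table passed by edgeR (2207 had an unadjusted p under 0.05). Tnfrsf9 went from 247 to 655 CPM in 13-MCB-17 cells and from 464 to 495 CPM in 10-SJK-221 cells, a mean log2 fold change of 0.72 ± 0.26 (SE, adjusted p = 0.0795 by edgeR) made of CPM ratios of 2.65 and 1.07 in these lines. With no filter on low counts it passed (0.72 ± 0.12, SE, adjusted p = 9.63e-08 by edgeR), as it did without either 10-SJK-221 library (1.36, adjusted p = 0.00339 and 0.00377). Tnfaip3 had 299 and 316 CPM alone and 245 and 280.1 CPM in co-culture (-0.26 ± 0.11, SE, adjusted p = 0.127 by edgeR), and Nfkbie had 23.4 and 22.5 CPM alone and 31.7 and 28.6 CPM in co-culture (0.37 ± 0.13, SE, adjusted p = 0.0806 by edgeR). In both lines Tnfaip3 was lower and Nfkbie higher with NFs. The subunits had log2 fold changes from -0.16 (Nfkb2) to 0.23 (Relb), none past the test. The median fibroblast marker reached 0.294% and 0.173% of its NF level in the co-cultured tumor libraries.

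**Figure D3:**
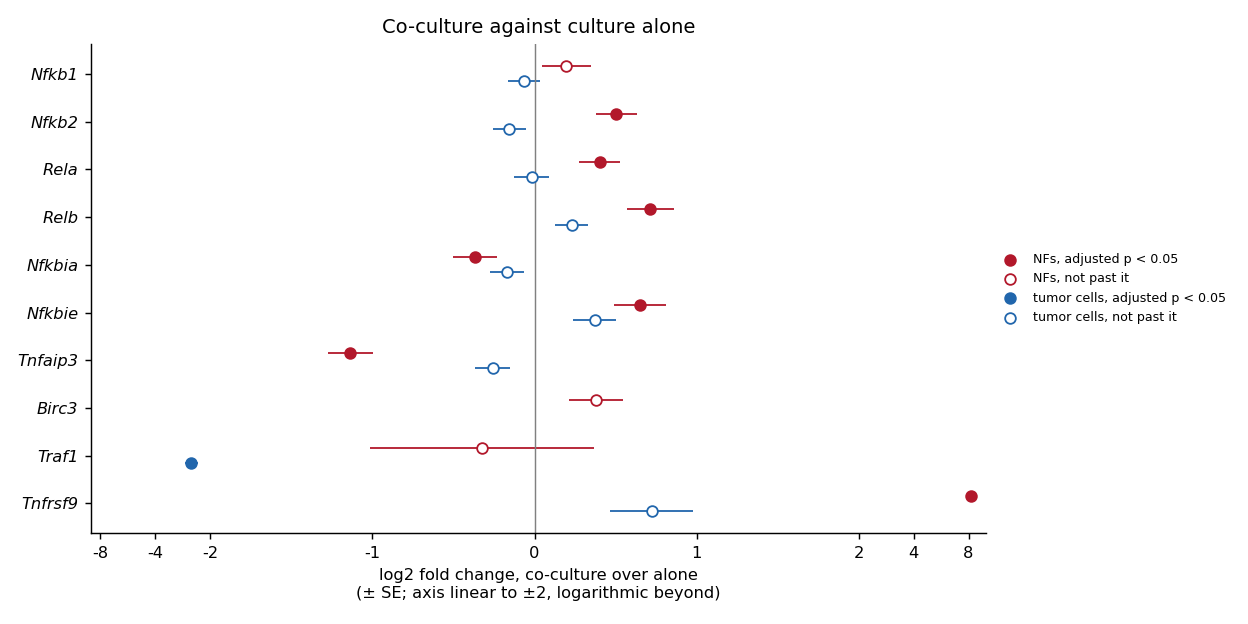
Log2 fold change of co-culture over culture alone (horizontal, with SE) for the 10 genes (vertical) in NFs and in tumor cells, with filled points past an adjusted p of 0.05 by edgeR. NFs have 7 filled points, with Tnfrsf9 at 8.28 and Tnfaip3 at -1.14, and tumor cells have 1, Traf1 at -2.54 (Birc3 was not tested in tumor cells).

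The responses of NFs and tumor cells to co-culture were compared directly in a fit of all 10 libraries. Of the 10 genes 4 differed, with 30.8% of all 17048 genes called. The NF response exceeded the tumor response for Tnfrsf9 by 7.64 ± 0.44 on the log2 scale (SE, adjusted p = 4.73e-07 by edgeR), for Traf1 by 2.24 ± 0.67 (adjusted p = 0.0245) and for Nfkb2 by 0.66 ± 0.19 (adjusted p = 0.0203). For Tnfaip3 it was lower, by -0.88 ± 0.20 (adjusted p = 0.00651). Traf1 stayed at 11 counts or fewer in every NF library, so the NF side of its value was poorly measured. In the separate fits its log2 fold change was -0.32 ± 0.69 (SE) in NFs and -2.54 ± 0.22 in tumor cells. Leaving out single libraries left 2 to 4 of the 10 genes past the test. Tnfaip3 did not pass without either 10-SJK-221 library (adjusted p = 0.0652 and 0.0667), Nfkb2 without any tumor library or the gel 4 CD26- library (0.0537 to 0.14), and Traf1 without either 13-MCB-17 library, the gel 4 CD26+ library or the gel 5 CD26- library (0.0884 to 0.176). Traf1 did not pass either with carry-over subtracted (1.88 ± 0.92, SE, adjusted p = 0.161 by edgeR) or by limma-voom with the gel as a random block (2.03 ± 0.70, SE, adjusted p = 0.0504). Tnfrsf9 passed in each of these fits, none of which left out a library of NFs alone.

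Tumor cells and NFs differed at 7 of the 10 genes when grown alone and at 7 when taken from the same gels, with 47.2% of 14404 and 57.5% of 15098 genes called. Called in both were Nfkb2, Nfkbie, Tnfaip3, Traf1 and Tnfrsf9, higher in tumor cells, and Birc3, lower in them. Both NF libraries grown alone came from gel 1, and each tumor line gave 1 library. The fit of cells grown alone had no term for subset or line, so these differences served as its spread. In that fit, cell type and any peculiarity of gel 1 cannot be told apart. Birc3 had 3 to 11 counts per tumor library (0.170 to 0.700 CPM) against 32.2 to 55.6 CPM in the 6 NF libraries. Its log2 fold change was -6.40 ± 0.50 (SE, adjusted p = 0.000326 by edgeR) alone and -7.28 ± 0.32 (adjusted p = 6.75e-07) in the same gels. Traf1 had the opposite pattern and was 29.6-fold higher in tumor cells alone (log2 fold change 4.89 ± 0.48, SE, adjusted p = 0.000752 by edgeR) and 6.78-fold higher in the shared gels (2.76 ± 0.58, adjusted p = 0.00398). Birc3 and Traf1 thus marked opposite cell types, in both cultures.

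Tnfrsf9 and Tnfaip3 shifted between these comparisons in opposite senses. Tnfrsf9 was higher in tumor cells by 8.62 ± 0.53 on the log2 scale in cells grown alone (SE, adjusted p = 0.000147 by edgeR) and by 1.05 ± 0.16 in the same gels (adjusted p = 0.000628). Tnfaip3 was higher in tumor cells by 1.08 ± 0.22 alone (SE, adjusted p = 0.0105 by edgeR) and by 2.00 ± 0.14 in the same gels (adjusted p = 7.66e-06). Nfkb2 was higher in tumor cells by 1.69 ± 0.20 alone (SE, adjusted p = 0.00163 by edgeR) and 1.05 ± 0.13 in the same gels (adjusted p = 0.000171), with 196 to 265 CPM in tumor libraries and 65.0 to 100.1 CPM in NF libraries. Per kilobase, Nfkb2 exceeded Nfkb1 in every library, by 2.99 to 3.74 times in tumor cells and 1.49 to 2.26 times in NFs. Rela passed only in cells grown alone (0.69 ± 0.20, SE, adjusted p = 0.0318 by edgeR) and Nfkbia only in the same gels (0.58 ± 0.14, adjusted p = 0.00794). Relb did not pass in either comparison (adjusted p = 0.182 and 0.822), and in the same gels the tumor libraries, at 49.8 and 60.8 CPM, lay inside the NF range of 40.6 to 61.5 CPM. In cells grown alone Nfkbie did not pass without any 1 of the 4 libraries (adjusted p = 0.0726 to 0.131), nor Rela without either NF library or 10-SJK-221 (0.0891 to 0.147), nor did these genes pass with no filter on low counts (0.0579 and 0.0501). In the same gels Nfkbie did not pass without the tumor library (0.103) or the CD26- library (0.0561) of gel 4.

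**Figure D4:**
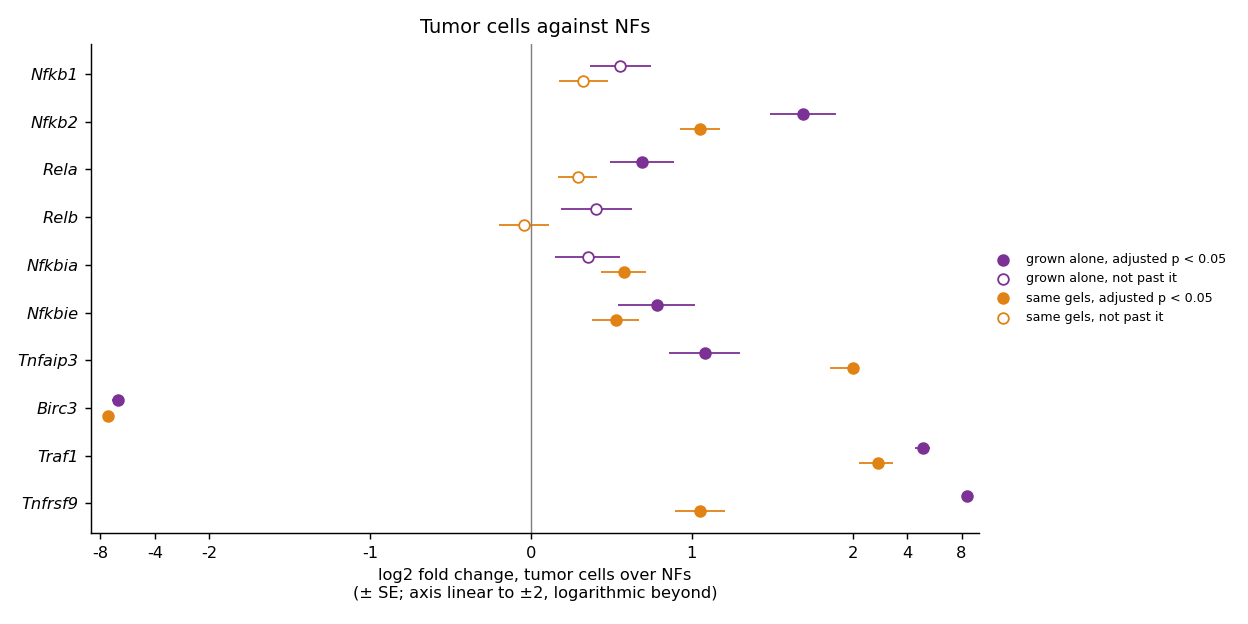
Log2 fold change of tumor cells over NFs (horizontal, with SE) for the 10 genes (vertical), in cells grown alone and in cells of the same gels, with filled points past an adjusted p of 0.05 by edgeR. Birc3 stands at -6.40 and -7.28, and Tnfrsf9 moves from 8.62 alone to 1.05 in the same gels.

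The other genes of the pathway, 87 in 6 lists, are given by their roles, and each count is to be read against the 48.8% of all genes that passed in NFs and the 22.3% in tumor cells. Among ligands in NFs, 3 of 9 tested rose and 5 fell in co-culture (88.9% called against 48.8% of all genes), with a median log2 fold change of -0.82 against 0.02 over all genes. Tnf, the founding ligand of the pathway, had 0.124 and 0.351 CPM in NFs alone against 3.34 to 8.92 CPM in co-culture, which was 50.0% to 364% of the tumor level in the same gels (adjusted p = 0.000171 by edgeR). Il1a, the gene of interleukin-1 alpha, was at 0 in NFs alone and had 17.3 to 21.6 CPM in co-culture, at 5.79% (CD26-) and 5.26% (CD26+) of the tumor level in gel 4 and 4.32% and 4.94% in gel 5. That lay above the median carry-over share of each library except CD26+ in gel 5, and below that of the highest marker in all 4. Tnfsf9, the gene of the ligand of 4-1BB and picked here after its values were seen, had 2.05 and 5.76 CPM in NFs alone against 26.6 to 61.8 CPM in co-culture, above the tumor cells of the same gels (18 and 14.9 CPM), with a log2 fold change of 3.63 ± 0.22 (SE, adjusted p = 1.98e-06 by edgeR). It was also higher in CD26+ than in CD26- NFs, by 0.87 ± 0.17 on the log2 scale (SE, adjusted p = 0.02 by edgeR), one of 2 ligands of 9 called there (22.2% against 7.53% of all genes). In co-cultured NFs Tnfsf13b, the gene of the cytokine BAFF, fell by 2.43 (adjusted p = 1.15e-05 by edgeR) and Il18, that of interleukin-18, fell by 2.18 on the log2 scale (adjusted p = 0.00131). Tnfsf13b was the other ligand called between subsets and was lower in CD26+ NFs, by -1.19 ± 0.20 (SE, adjusted p = 0.0114 by edgeR).

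Among receptors in NFs, 4 of 12 tested rose and 5 fell (75% called against 48.8%). Cd40, a TNF receptor family member known for signaling to NF-kB, had 0.124 and 1.97 CPM in gel 1 and 45.0 to 65.4 CPM in NFs of gels 4 and 5 (adjusted p = 1.56e-05 by edgeR), while tumor cells had 0 to 0.339 CPM in any gel. Tnfrsf12a, the receptor of TWEAK, rose by 1.29 ± 0.18 (SE, adjusted p = 0.000323 by edgeR). Il1r1, the signaling receptor of interleukin-1, fell by 2.17 and Tlr3 by 2.06 on the log2 scale (adjusted p = 1.94e-06 and 0.000257 by edgeR). Il1r1, the 1 receptor of 12 called between subsets (8.33% against 7.53% of all genes), stood lower in the CD26+ subset, by -0.64 ± 0.13 (SE, adjusted p = 0.0215 by edgeR).

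Adaptors and kinases changed at a rate near the background in NFs, with 5 of 21 higher and 6 lower (52.4% against 48.8%). Traf6, the ubiquitin ligase of the interleukin-1 and Toll-like receptor route, rose by 1.17 ± 0.14 (SE, adjusted p = 0.000144 by edgeR), whereas Myd88, its upstream adaptor, and Map3k14, the kinase NIK of the non-canonical route, fell by 1.2 and 1.34 on the log2 scale (adjusted p = 0.000355 and 8.47e-05 by edgeR). In tumor cells Map3k14 rose instead, by 0.96 ± 0.16 (SE, adjusted p = 0.00342 by edgeR), and the response of NFs was lower than that of tumor cells by -2.31 ± 0.24 (adjusted p = 3.15e-05). Of the remaining subunit, IkB proteins and brakes, 6 of 12 rose and 3 fell in NFs (75% called against 48.8%). Zc3h12a, the RNase Regnase-1, and Tnip1, a partner of A20, rose by 0.91 and 0.84 on the log2 scale, and Nfkbiz, a nuclear IkB protein, fell by 0.99 (adjusted p = 0.000671, 0.000726 and 0.000496 by edgeR). Between subsets 2 of the 12 passed (16.7% against 7.53%), where the subunit gene Rel was lower in CD26+ NFs by -0.85 ± 0.18 (SE, adjusted p = 0.0271 by edgeR) and the IkB protein gene Bcl3 higher by 0.58 ± 0.15 (adjusted p = 0.0461).

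Secreted and adhesion targets changed in both directions in NFs, 6 higher and 9 lower of 17 tested (88.2% called against 48.8%), with a median log2 fold change of -1.28. Nos2, inducible nitric oxide synthase, which this list also holds, had 0.186 and 0.281 CPM in NFs alone against 161 to 320 CPM in co-culture (adjusted p = 3.9e-07 by edgeR), at 40.9% to 256% of the tumor level of the same gel. Csf2, the gene of GM-CSF, was at 0 in NFs alone and had 0.909 to 5.66 CPM in co-culture, 6.37% to 33.9% of the tumor level. In CD26- NFs it stood at 6.75% (gel 4) and 6.37% (gel 5), below the highest marker shares of 9.79% and 9.19%. In CD26+ NFs it stood at 33.9% and 19%, above shares of 12.7% and 17.7%. The neutrophil chemokine gene Cxcl5 and the adhesion molecule gene Vcam1 fell by 3.44 and 2.65 on the log2 scale (adjusted p = 9.7e-06 and 1.16e-05 by edgeR), and the Cxcl5 left in co-cultured NFs was 4.79% to 9.58% of the tumor level. The acute-phase genes Saa3 and Lcn2 were 14.1-fold and 7.92-fold higher in CD26+ than in CD26- NFs (adjusted p = 0.000101 and 8.62e-05 by edgeR), and Csf1, the gene of the macrophage growth factor, was 2.06-fold lower (adjusted p = 0.0131). In all, 3 of the 17 were higher and 1 lower between subsets (23.5% called against 7.53% of all genes). Lcn2 had 0.497 (CD26-) and 7.16 CPM (CD26+) in gel 1, which held no tumor cells. In gels 4 and 5 it stood at 3.21% and 3.77% of the tumor level in CD26- NFs, little above their median carry-over shares, and at 26.2% and 31.9% in CD26+ NFs, above the share of the highest marker. In tumor cells 2 of 15 of these targets rose and 6 fell (53.3% called against 22.3%), among them Cxcl5 (fell by 2.00, adjusted p = 3.86e-05 by edgeR) and Cxcl1 (fell by 1.89, adjusted p = 0.000421). Vcam1 rose there by 2.85 ± 0.39 (SE, adjusted p = 0.00167 by edgeR), to 15.3 and 17.1 CPM. RNA from the NFs of these gels would give 0.242 and 0.088 CPM of it at the median fibroblast marker share. The share of the highest marker, Pdgfra, would give 7.39 and 5.03 CPM. Pdgfra had 67.7 and 35.6 CPM in tumor cells grown without NFs and 49.9 and 43.5 CPM in these libraries. Its share is therefore not a measure of NF RNA.

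Intracellular targets were called at a rate near the background in co-cultured NFs, with 4 of 9 higher and 1 lower (55.6% against 48.8%). Ptges, prostaglandin E synthase, had 104 and 139.5 CPM in gel 1 and 323 to 577 CPM in gels 4 and 5 (1.91 ± 0.15 on the log2 scale, SE, adjusted p = 1.01e-05 by edgeR), against 49.5 and 38.5 CPM in the tumor cells. Cflar, the caspase-8 regulator c-FLIP, rose by 1.07 ± 0.16, and Irf1, an interferon-regulated transcription factor, fell by 1.31 on the log2 scale (adjusted p = 0.000465 and 1.7e-05 by edgeR). Between subsets 2 of 9 passed (22.2% against 7.53%), with Bcl2l1, the gene of the survival protein BCL-XL, higher in CD26+ NFs by 0.63 ± 0.16 (SE, adjusted p = 0.0441 by edgeR) and Cflar lower by -0.63 ± 0.14 (adjusted p = 0.0309). In tumor cells, 2 of 9 rose and 2 fell (44.4% called against 22.3%). Irf1 rose there by 0.41 ± 0.10 (SE, adjusted p = 0.0178 by edgeR), and the NF response was lower than the tumor response by -1.73 ± 0.18 (adjusted p = 2.52e-05).

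**Figure D5:**
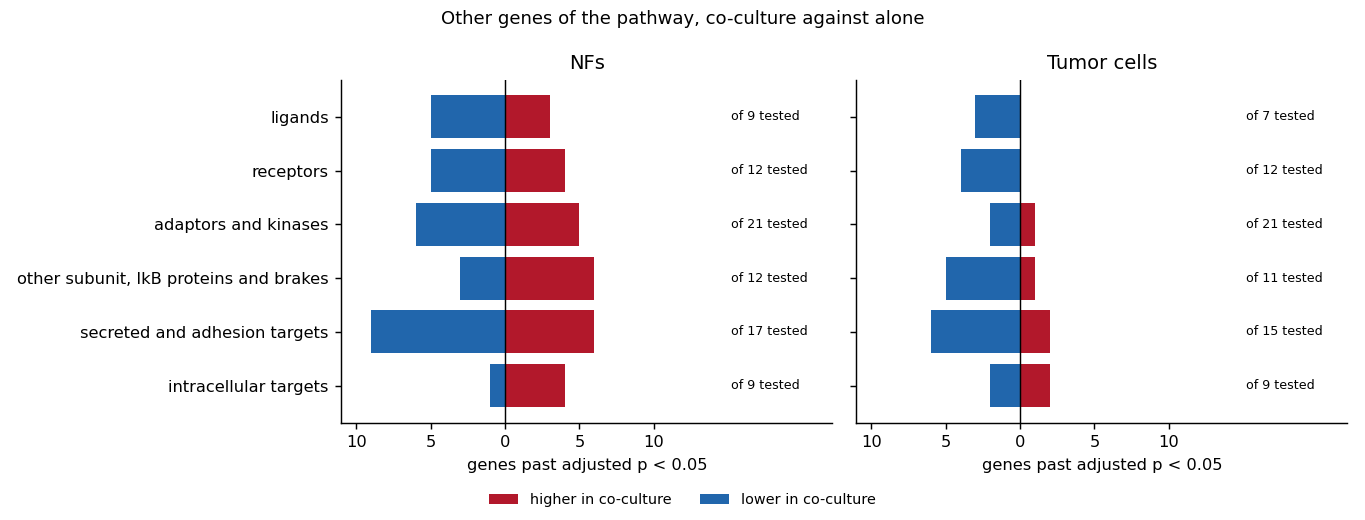
Number of genes past an adjusted p of 0.05 by edgeR (horizontal), higher to the right and lower to the left, in each of the 6 lists of other pathway genes (vertical), for NFs and for tumor cells in co-culture against alone. In NFs the secreted and adhesion targets have 6 higher and 9 lower of 17 tested, and in tumor cells no ligand or receptor is higher.

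Genes with the most similar pattern over the 10 libraries were taken by Pearson's r of log2(CPM + 1) over 13480 genes, given as a description over libraries that share gels and lines. Tnfrsf9 was matched most closely by Car9, a membrane carbonic anhydrase (r = 0.997), and Ero1l, an oxidoreductase of the endoplasmic reticulum (r = 0.995). Car9 had 0.0621 and 0.281 CPM in NFs of gel 1, 32.4 to 41.4 CPM in NFs of gels 4 and 5 and 26.1 to 78.4 CPM in tumor cells. Ero1l, in the same order, had 37.7 and 37.1 CPM, 1404 to 1915 CPM and, in tumor cells, 1475 to 2689 CPM. Both thus share with Tnfrsf9 the step between NFs alone and all other libraries. Birc3 was matched by Xylt1, a xylosyltransferase, and Ppp1r3b, a subunit that targets a phosphatase to glycogen (both r = 0.998), which were at 0 or nearly so in tumor cells. Tnfaip3 was matched by Jpt2 (r = 0.992) and Dhx29 (r = 0.989), Traf1 by Ankrd22 (r = 0.988) and Klra1 (r = 0.985), and Nfkb2 by Parp16 (r = 0.997) and Krt78 (r = 0.996). For Rela these were Pafah1b3 and Ppp2cb (r = 0.990 and 0.979), for Relb Rnf126 and Jmjd6 (0.986 and 0.973), and for Nfkb1 Gm16477 and B4galnt3 (0.981 and 0.979). The inhibitors were matched by Tbc1d7 and 4930556M19Rik (Nfkbia, r = 0.991 and 0.983) and by Pdgfa and Cnnm4 (Nfkbie, r = 0.991 and 0.989).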

How the data were processed

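The deposited values were raw read counts per gene, made by the authors from stranded mRNA libraries with HISAT2 2.2.1 on GRCm38 per the submitters' processing notes. The counting program, its strand setting and the annotation release were not given in the sources used here. Of 55486 gene IDs, 55140 matched GENCODE M21, 99.35% of these with the same coordinates, and exon lengths came from there. The table's last line names no gene, holds 0 counts and was dropped.

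Counts were fitted with edgeR 4.0.16 in R 4.3.3 (TMM, filterByExpr, quasi-likelihood F test, Benjamini-Hochberg, threshold 0.05). Genes and lists were chosen with earlier results of these data known. Besides the 10 genes, at most 2 highest and 2 lowest called genes per list with a mean of at least 1 CPM, and the 2 most alike genes, were named. Fits of NFs used 6 libraries with culture and subset as terms or as 4 groups. Tumor fits used 4 libraries with line as a term, and cell type comparisons 4, 6 or 10 libraries. Carry-over was the median over 10 epithelial markers of NF CPM divided by tumor CPM of the same gel. Libraries of the same gel share a number in the labels, and their deviations from the co-culture group means correlated at 0.264, 0.190 and 0.099. Alternatives included RLE scaling, other filters, DESeq2 1.42.0, 1 fit of all libraries, subtraction of carry-over, a replicate block, limma-voom (version 3.58.1) with the gel as a random block, summed NF libraries of a gel and leaving out libraries. The main fits, except those within single subsets, were checked on simulated data with 200 changed genes. These simulated libraries were independent and had no gel effect, so the check does not cover libraries that share a gel.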

Additional observations from a re-analysis of the deposited data

Results flagged for a closer look

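The response to co-culture differed between NFs and tumor cells for 4 of the 10 genes, by a test of the difference itself in edgeR in which 30.8% of all genes passed. The differences (NF response minus tumor response, log2) were 7.64 for Tnfrsf9 (adjusted p = 4.73e-07), 2.24 for Traf1 (adjusted p = 0.0245), 0.66 for Nfkb2 (adjusted p = 0.0203) and -0.88 for Tnfaip3 (adjusted p = 0.00651). Tnfrsf9 was higher in 4 of 4 co-cultured NF libraries than in the same subset alone, while the tumor lines had CPM ratios of 2.65 and 1.07 and did not pass the test (adjusted p = 0.0795 by edgeR). Traf1 was lower in 2 of 2 tumor lines. Leaving out single libraries left 2 to 4 of the 10 past the test, and the calls of Traf1, Nfkb2 and Tnfaip3 were each lost in some of these fits while that of Tnfrsf9 was not. The NF side of each difference rests on 1 gel of NFs alone, and no library of that gel was left out. No group held enough libraries for a test of single outlying values.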

How the results depend on the processing

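Over all alternatives, 929 log2 fold changes of the 10 genes were recomputed from 89 results. Of the 35 results past the threshold, 19 kept direction and call under every refit, and none turned its direction. A further limit of 2 on the absolute log2 fold change was not counted among these refits. It left 1 of the 10 genes for co-culture in NFs, against 2047 of all 15013 genes. Between tumor cells and NFs it left 3 of the 10 in cells grown alone, against 3969 of all 14404 genes, and 3 in the same gels. For the difference between cell types in response it left 2. Without a filter beyond 1 count, 5 passed for co-culture in NFs, 5 between tumor cells and NFs grown alone, 2 within CD26- NFs, 2 within CD26+ NFs and 2 in tumor cells (Traf1 and Tnfrsf9), and without the tumor line 0 passed in tumor cells. Leaving out libraries gave 3 to 6 genes for co-culture in NFs, 1 to 2 in tumor cells (Tnfrsf9 was added without 10-SJK-221 in either culture) and 2 to 4 for the difference between cell types in response, where leaving out any 1 tumor library gave 2. Leave-outs within subsets, of both differences in response and of tumor cells used the fit of all 10 libraries, less those left out. In it a lone library is assumed to vary like the other groups. With the gel as a replicate block, 0 of the 10 passed between subsets, 0 in the difference between subset responses and 7 between tumor cells and NFs of the same gels, so in these 3 comparisons the block changed no call count of the 10 genes. For co-culture in NFs, where culture and gel are nested, and for the difference between cell types in response, alternatives were added after the data were seen. With limma-voom and the gel as a random block, 7 and 3 of the 10 passed, as without the block (7 and 3), and the correlation within gels was estimated at -0.126, which was held at 0, and 0.00582. With both NF libraries of a gel added up, 5 and 4 passed. Within single subsets a random block could not be fitted. Over all genes, the block gave 395 in place of 61 for the difference between subset responses, where DESeq2 gave 98, no filter 18, the filter of 1 CPM 38, 1 fit of all libraries 31 and subtraction of carry-over 28, and the others 43 to 63. Over all genes, leaving out libraries gave 17 to 1299 calls between subsets (1130 in the main fit), with 17 without gel 5, 406 to 1014 in tumor cells (2942) and 2998 to 5284 for the difference between cell types (5247), 1 fit of all libraries gave 1719 between subsets and 1817 in tumor cells, and DESeq2 gave 1550 in tumor cells. Values near 0 changed sign in 17 cases, all of results that had not passed and did not pass then. Between subsets, Nfkb2 stood at -0.011 without a filter and -0.0018 with carry-over subtracted, and leaving out a gel gave -0.069 to 0.085 for Nfkb2, -0.11 to 0.058 for Rela, -0.095 to 0.0056 for Nfkbie and -0.044 to 0.32 for Birc3. Leaving out gel 4 or 5 gave -1.23 to 0.36 for Traf1 and -0.057 to 0.27 for Nfkb1 within CD26- NFs, and -1.48 to 0.15 for Traf1 within CD26+ NFs. For the difference between subset responses it gave -0.325 to 0.13 for Relb, -0.27 to 0.057 for Nfkbia, -0.047 to 0.45 for Tnfaip3 and -1.84 to 1.38 for Traf1. Leaving out single libraries gave -0.12 to 0.095 for Rela in tumor cells and -0.21 to 0.054 for Relb between tumor cells and NFs of the same gels. The causes were not tested. At this depth 3 counts limit Traf1 in NFs and Birc3 in tumor cells.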
